A study of Mus musculus with 12 samples.

Results

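A set of genes, 9 of the 17186 tested, that handle phenylalanine, tyrosine and the cofactor tetrahydrobiopterin (BH4) were followed in the hypothalamus of mice given the sweetener aspartame, the NMDA receptor antagonist CGP 39551, both or neither. Aspartame is split in the gut into aspartic acid, methanol and phenylalanine, so the question here was whether genes that transport or break down phenylalanine, or make and recycle BH4, differed between the treatments. The genes were chosen for these roles, with earlier results of these data known. Each is represented by 1 probe set that the platform annotation gives that symbol alone. All 9 passed the filter on low signals, which asks for 3 or more arrays with a log2 signal of 6 or over. Among them, Gch1 was higher in the aspartame pool than in the control pool and than in the pool with both treatments, and no other member passed the test in any comparison.

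The hypothalamus was taken from male C57Bl/6J mice aged 21 weeks. Control mice (CON) received neither agent. ASP mice received aspartame at 46 mg/kg body weight in their drinking water from before birth and throughout life. CGP mice were exposed to CGP 39551, which competes with glutamate at its NMDA receptor, at 5 mg/kg through their mothers from conception until postnatal day 28, and ASP+CGP mice had both exposures. For each group, RNA of the mice was combined into 1 pool and hybridized to 3 Affymetrix Mouse Gene 1.0 ST arrays, giving 12 arrays. The 3 arrays of a pool are therefore technical repeats, the p-values measure the spread between arrays and not between mice, and treatment and every other way in which the pools differed cannot be told apart. In such bulk tissue fewer cells of a type and less RNA per cell cannot be told apart either.

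BH4 is the cofactor with which tyrosine hydroxylase (Th) makes the precursor of dopamine and noradrenaline, tryptophan hydroxylase makes the precursor of serotonin, and the nitric oxide synthases make nitric oxide. It is built from GTP by GTP cyclohydrolase (Gch1), which sets the rate, then by 6-pyruvoyltetrahydropterin synthase (Pts) and sepiapterin reductase (Spr), and the used cofactor is recycled by pterin carbinolamine dehydratase (Pcbd1) and dihydropteridine reductase (Qdpr). Slc7a5 is the light chain of the transporter that carries phenylalanine and other large neutral amino acids across the blood-brain barrier. Tyrosine is degraded, above all in the liver, by tyrosine aminotransferase (Tat), 4-hydroxyphenylpyruvate dioxygenase (Hpd) and, at the last step, fumarylacetoacetate hydrolase (Fah).

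The tissue label was checked with a list of hypothalamic genes, of which 11 were tested. Their mean log2 signal lay between 10.03 and 10.31 on all 12 arrays, and the pool means of the neuropeptide genes Hcrt and Oxt were 12.47 to 12.65 and 11.76 to 12.14. Against CON, 6 of the 11 were lower in ASP, 4 in CGP and 4 in ASP+CGP, with median log2 fold changes of -0.16, -0.20 and -0.18, and 0 were higher in any of them. Lists for neurons (Snap25, Stmn2), astrocytes (Slc1a2, Slc1a3) and oligodendrocytes (Mbp, Cnp) had 0 genes called in ASP vs CON, and that for brain capillary endothelium (Slc2a1, Cldn5) had 1 of 9, higher. Genes of other tissues stood high in the ASP pool alone or above all there, and their values are given beside Gch1. Array 3 of CON and array 3 of ASP+CGP stood apart from the others of their pools: over all genes, the SD of the deviation from the pool mean was 0.0903 and 0.0996 log2 units on these arrays and 0.049 to 0.0701 on the other 10.

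The promoter of Gch1 is printed because Gch1 is the member whose signal differed between pools. The gene lies at chr14:47153895-47189413 on the minus strand of GRCm38.p6, and the window below holds the 250 bases before its start in RefSeq (chr14:47189414-47189663, minus strand, 5′ to 3′). Capitals mark matches to CCAAT (the CCAAT box), TGACG (the start of the cyclic AMP response element) and GGGCGG (the GC box), searched on both strands together with the whole element TGACGTCA, which contains TGACG.
Gch1: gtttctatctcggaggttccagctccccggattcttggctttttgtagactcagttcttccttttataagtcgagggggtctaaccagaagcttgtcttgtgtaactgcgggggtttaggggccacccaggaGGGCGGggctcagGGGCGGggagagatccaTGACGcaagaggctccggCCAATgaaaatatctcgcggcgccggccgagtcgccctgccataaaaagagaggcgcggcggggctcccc
The window held CCAAT from 70 to 66 bases before the start, TGACG from 88 to 84 bases before it, and GGGCGG at 2 places. Of the 32851 windows of the same length in the RefSeq table, 33.8% held CCAAT, 17.8% TGACG, 32.7% GGGCGG and 1.55% TGACGTCA. Among the 8 members with a window in the table, CCAAT was found for Qdpr, Gch1 and Tat, TGACG for Gch1, GGGCGG for Qdpr, Gch1, Pts, Spr, Fah and Hpd, and TGACGTCA for 0. Slc7a5 was without an entry. A match is a description of the letters and shows no binding.

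The first enzyme of the pathway, Gch1, had a low signal, between 6.23 and 6.87 on the log2 scale. The CON arrays read 6.47, 6.46 and 6.44, those of CGP 6.23, 6.30 and 6.24, those of ASP 6.69, 6.87 and 6.63, and those of ASP+CGP 6.41, 6.41 and 6.41. All 3 ASP arrays lay above all 9 others, all 3 CGP arrays lay below all 9 others, and no pair of pools overlapped. The order of the pool means was ASP, CON, ASP+CGP and CGP.

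**Figure D1:**
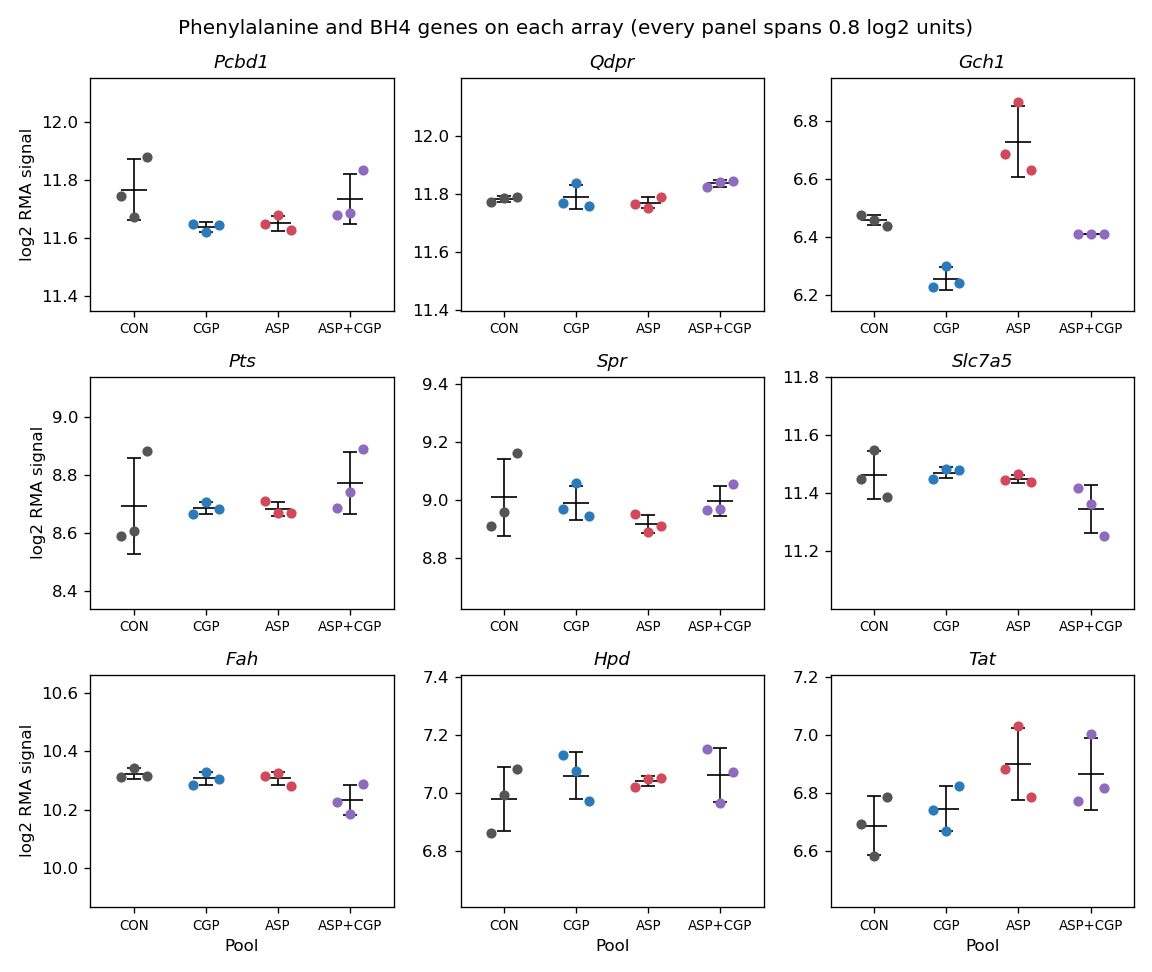
Log2 RMA signal (vertical axis, the same span in every panel) of the 9 genes by pool (horizontal axis). Points are the 3 arrays of a pool in the order of their numbers, and bars show the mean and SD. Gch1 stands between 6.63 and 6.87 in ASP and between 6.23 and 6.30 in CGP, without overlap of any pools. In each of the other panels some pools overlap, and only for Pts and Hpd do all pairs of pools overlap.

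In limma fitted over all genes, the log2 fold change of Gch1 in ASP vs CON was 0.27 ± 0.05 (SE, 3 arrays a pool, 95% confidence interval 0.16 to 0.39), a 1.21-fold difference with an adjusted p of 0.0088. In ASP vs ASP+CGP it was 0.32 ± 0.05 (interval 0.20 to 0.43), 1.25-fold, with an adjusted p of 0.002. Background can form part of a signal this low, so the fold may be understated by an unknown amount, which was not measured. Without the second ASP array, the highest, the ASP vs CON difference was 0.20. When the arrays of ASP and CON alone were fitted, its size was the same and the adjusted p was 0.058.

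In the other comparisons the Gch1 differences did not pass the test after adjustment. CGP vs CON gave a log2 fold change of -0.20 ± 0.05 with an unadjusted p of 0.0023 and an adjusted p of 0.14 in limma. ASP+CGP vs CGP, the aspartame difference on the antagonist background, was 0.15 ± 0.05 with an adjusted p of 0.22. ASP+CGP vs CON was -0.05 ± 0.05 with an adjusted p of 0.73. The interaction, which asks whether the aspartame difference itself differed between the backgrounds, was -0.12 ± 0.08 (interval -0.28 to 0.05) with an adjusted p of 0.44, so a difference between the aspartame effects without and with CGP 39551 was not shown for Gch1.

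The count of members is read against all genes. In ASP vs CON, 1 of 9 members was called at an adjusted p under 0.05, beside 4.08% of all genes tested (2.92% higher and 1.16% lower). In ASP vs ASP+CGP, 1 of 9 was called, beside 6.92% (4.25% higher and 2.67% lower). In the other comparisons 0 of 9 were called, beside 0.628% in CGP vs CON, 1.75% in ASP+CGP vs CON, 0.978% in ASP+CGP vs CGP and 4.01% for the interaction. A count of 1 is the smallest above 0 that 9 genes can give, and nothing about the set is read from it. At an unadjusted p under 0.05 the members past it numbered 2 in ASP vs CON, 2 in CGP vs CON, 3 in ASP+CGP vs CON, 1 in ASP vs ASP+CGP, 2 in ASP+CGP vs CGP and 1 for the interaction, where all genes gave 16.9%, 11.6%, 15.4%, 21.1%, 14.2% and 17.9%. An analysis of variance without moderation of the spread also called Gch1 in the same 2 comparisons and 0 members elsewhere.

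No member also passed the 1.4-fold threshold that the study used, which 1.05% of all genes passed in ASP vs CON, 0.111% in CGP vs CON, 0.18% in ASP+CGP vs CON, 1.27% in ASP vs ASP+CGP, 0.163% in ASP+CGP vs CGP and 1.5% for the interaction. The median log2 fold change of the 9 members was -0.01 in ASP vs CON and -0.02 in ASP vs ASP+CGP, beside -0.01 and -0.01 over all genes. The median size of the members' difference, regardless of sign, was 0.06 and 0.08, beside 0.06 and 0.07. The 8 members other than Gch1 had intervals in ASP vs CON that reached from -0.24 for Pcbd1 to 0.38 for Tat, or from 1.18-fold lower to 1.30-fold higher on the array scale. For Hpd and Tat, of low signal, these limits may be those of an understated fold and are not read as bounds on the difference in RNA. In CGP vs CON their bounds were -0.25 and 0.22, and in ASP+CGP vs CON -0.23 and 0.34.

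**Figure D2:**
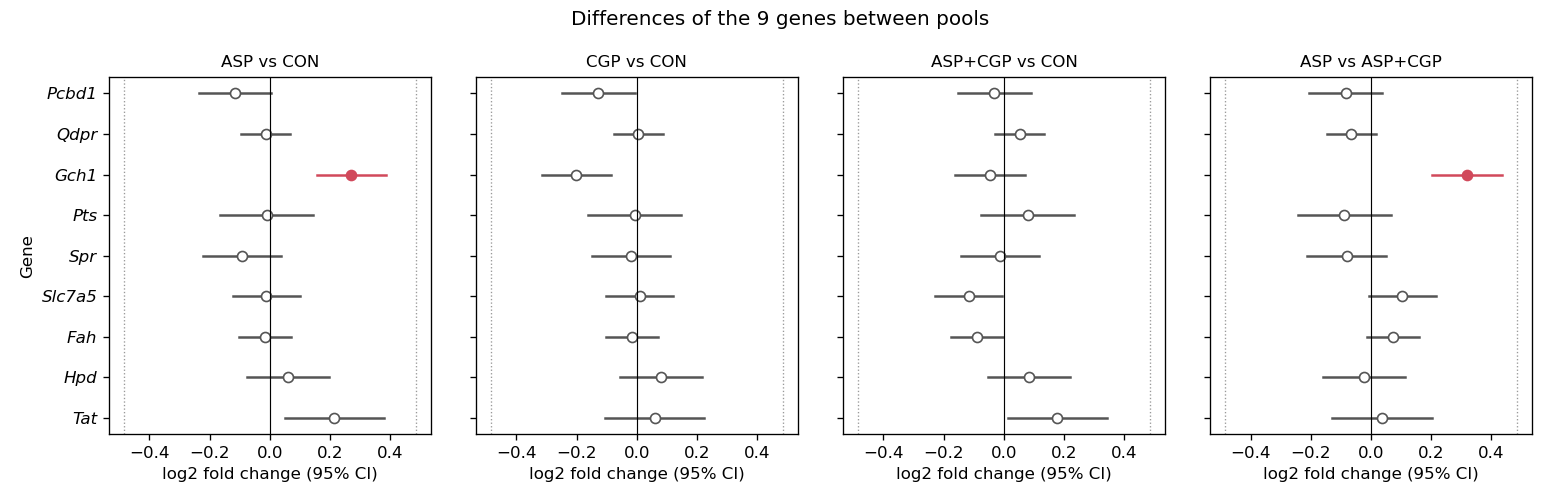
Log2 fold changes (horizontal axis) of the 9 genes (vertical axis) in 4 comparisons, with 95% confidence intervals from limma. Filled points passed an adjusted p under 0.05, and dotted lines mark a 1.4-fold difference. Gch1 is filled at 0.27 in ASP vs CON and at 0.32 in ASP vs ASP+CGP, and all intervals lie inside the dotted lines.

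Pts and Spr, the later steps of BH4 synthesis, were not called in any comparison. Pts (chr9:50521617-50528716) had log2 signals of 8.59, 8.61 and 8.88 in the CON pool, 8.67, 8.71 and 8.68 with CGP, 8.71, 8.67 and 8.67 with ASP, and 8.69, 8.74 and 8.89 with ASP+CGP. Its pools overlapped in every pair, and its highest values were those of array 3 of CON and array 3 of ASP+CGP. Spr (chr6:85133680-85137764) had 8.91, 8.96 and 9.16 in the CON pool, 8.97, 9.06 and 8.94 with CGP, 8.95, 8.89 and 8.91 with ASP, and 8.97, 8.97 and 9.05 with ASP+CGP. For Spr the third CON array was the highest, and the ASP arrays lay below those of ASP+CGP without overlap. The log2 fold change in ASP vs CON was -0.01 ± 0.07 for Pts and -0.09 ± 0.06 for Spr, with adjusted p of 0.96 and 0.47 in limma.

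Neither of the recycling enzymes was called in any comparison. Qdpr (chr5:45434032-45450229), which reduces the quinonoid form of the cofactor, had 11.77, 11.79 and 11.79 in the CON pool, 11.77, 11.84 and 11.76 with CGP, 11.77, 11.75 and 11.79 with ASP, and 11.82, 11.84 and 11.84 with ASP+CGP. The ASP+CGP arrays were the highest as a pool and did not overlap CON or ASP, but the difference from CON was 0.05 ± 0.04 with an adjusted p of 0.55. The ASP vs CON difference of Qdpr was -0.01 ± 0.04 (interval -0.09 to 0.07).

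Pcbd1 (chr10:61089331-61094329), which dehydrates the carbinolamine form of the cofactor and also binds the transcription factor HNF1, had 11.75, 11.67 and 11.88 in the CON pool, 11.65, 11.62 and 11.65 with CGP, 11.65, 11.68 and 11.63 with ASP, and 11.68, 11.69 and 11.83 with ASP+CGP. CON lay above CGP without overlap, and ASP+CGP lay above both single-treatment pools without overlap. The log2 fold change was -0.13 ± 0.06 in CGP vs CON and -0.12 ± 0.06 in ASP vs CON, with adjusted p of 0.4 and 0.32 in limma. The interaction was 0.21 ± 0.08 with an unadjusted p of 0.019 and an adjusted p of 0.18. Without array 3 of CON and array 3 of ASP+CGP these values were -0.07, -0.06 and 0.10. They kept their signs, and part of the Pcbd1 differences rests on those arrays.

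Of the enzymes that degrade tyrosine, Tat (chr8:109986078-109999804) had the largest difference. Its log2 signals were 6.69, 6.58 and 6.79 in the CON pool, 6.74, 6.67 and 6.82 with CGP, 6.88, 7.03 and 6.79 with ASP, and 6.77, 7.0 and 6.82 with ASP+CGP. The ASP arrays lay above the CON arrays by a gap that vanishes at 2 decimals, and every other pair of pools overlapped. The ASP vs CON log2 fold change was 0.21 ± 0.08 (interval 0.05 to 0.38, unadjusted p 0.015) with an adjusted p of 0.16, and that of ASP+CGP vs CON was 0.18 ± 0.08 with an adjusted p of 0.29 in limma.

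Hpd (chr5:123171807-123182723), also of low signal, had 6.86, 6.99 and 7.08 in the CON pool, 7.13, 7.07 and 6.97 with CGP, 7.02, 7.05 and 7.05 with ASP, and 7.15, 6.97 and 7.07 with ASP+CGP. Every pair of its pools overlapped. Fah (chr7:84585159-84605942), a brighter signal, had 10.31, 10.34 and 10.32 in the CON pool, 10.29, 10.33 and 10.31 with CGP, 10.31, 10.33 and 10.28 with ASP, and 10.23, 10.18 and 10.29 with ASP+CGP. CON, CGP and ASP overlapped for Fah, and ASP+CGP lay below CON without overlap at -0.09 ± 0.04, with an unadjusted p of 0.041 and an adjusted p of 0.3. In ASP vs CON Hpd differed by 0.06 ± 0.06 and Fah by -0.02 ± 0.04, with adjusted p of 0.68 and 0.88 in limma.

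Slc7a5 (chr8:121881146-121907686) had log2 signals of 11.45, 11.55 and 11.38 in the CON pool, 11.45, 11.48 and 11.48 with CGP, 11.44, 11.46 and 11.44 with ASP, and 11.42, 11.36 and 11.25 with ASP+CGP. CON, CGP and ASP overlapped, and ASP+CGP lay below CGP and ASP without overlap. The ASP vs CON difference of the transporter was -0.01 ± 0.05 (interval -0.12 to 0.10). ASP+CGP vs CON was -0.12 ± 0.05 and ASP+CGP vs CGP -0.13 ± 0.05, with adjusted p of 0.3 and 0.28 in limma. Without array 3 of CON and array 3 of ASP+CGP the latter was -0.08.

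Pool pairs without overlap are common in these data. Among the 9 members the arrays did not overlap for 2 in CON and CGP, 2 in CON and ASP, 3 in CON and ASP+CGP, 1 in CGP and ASP, 3 in CGP and ASP+CGP and 5 in ASP and ASP+CGP. Over all genes the shares were 19.4%, 23.9%, 17.3%, 30%, 22.5% and 27% in the same order. Gch1 was the member that overlapped in no pair.

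Within pools, Pts, Pcbd1, Spr and Slc7a5 deviated on the arrays that stood apart. On array 3 of CON and array 3 of ASP+CGP, Pts lay 0.19 and 0.12 log2 units above its pool mean, Pcbd1 0.11 and 0.10, and Spr 0.15 and 0.06, while Slc7a5 lay at -0.08 and -0.09. Slc3a2, the heavy chain that brings Slc7a5 to the cell surface, lay at -0.18 and -0.30 on the same arrays. Over 12 arrays the deviations from the pool mean were correlated for each pair of members. The strongest were 0.88 for Pcbd1 and Pts, 0.92 for Pts and Spr, and -0.90 for Pcbd1 and Slc7a5. Slc7a5 and Slc3a2 correlated at 0.89. The arrays share pools and normalization, and these values are descriptions. Over the 10 arrays without the pair that stood apart, the same correlations were -0.31, 0.64, -0.61 and 0.67. The next strongest, -0.79 for Pts and Slc7a5 and 0.68 for Pcbd1 and Spr, became -0.001 and -0.65. The links of Pcbd1 with Pts and Spr, and of Pts with Slc7a5, were thus carried by that pair. The deviations of Gch1 on the pair were within 0.02 of the pool means.

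**Figure D3:**
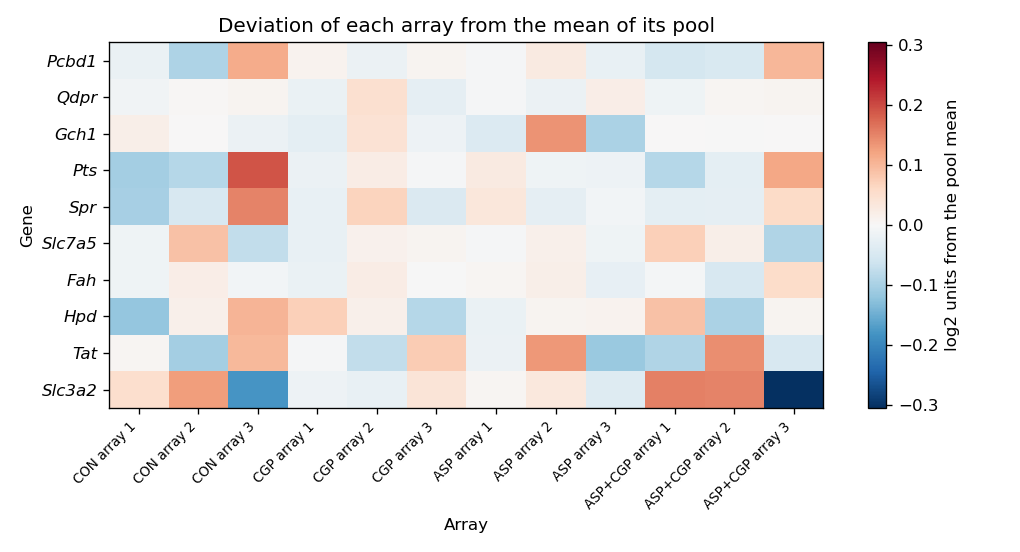
Deviation of the log2 signal from the mean of its pool (color, in log2 units) for the 9 genes and Slc3a2 (rows) on the 12 arrays (columns). On array 3 of CON and array 3 of ASP+CGP Pts stands 0.19 and 0.12 above its pool mean and Slc3a2 0.18 and 0.30 below.

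The rest of the pathway was read from lists of known genes. Of the other BH4 enzymes, 0 of 3 tested were called in any of the 6 comparisons. Gchfr, the protein through which phenylalanine and BH4 regulate GTP cyclohydrolase, was 7.11 ± 0.06 (SD, 3 arrays) in CON and 7.16 ± 0.09 in ASP, a difference of 0.05 ± 0.06 (SE). Pcbd2, the second carbinolamine dehydratase, differed by -0.07 ± 0.06. Of the other genes of phenylalanine and tyrosine breakdown, 0 of 6 were called in any comparison, with a median log2 fold change of -0.01 in ASP vs CON.

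Other transporters of large neutral amino acids, 10 tested, also gave 0 calls in the 6 comparisons. In ASP vs CON, 7 of the 10 lay above 0 with a median log2 fold change of 0.08, and 5 had an unadjusted p under 0.05 (3 higher and 2 lower), beside 16.9% of all genes. Slc3a2 was 12.39, 12.47 and 12.16 in CON and 12.51, 12.53 and 12.46 in ASP, which overlapped, and differed by 0.16 ± 0.10 with an adjusted p of 0.49.

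The enzymes that use BH4 and the amine genes after them held the large differences. Of 7 BH4-dependent enzymes tested, 1 was higher and 1 lower in ASP vs CON. Th, which makes the precursor of the catecholamines, was 10.33, 10.52 and 10.31 in the CON pool, 10.41, 10.42 and 10.40 with CGP, 11.04, 11.07 and 11.05 with ASP, and 10.58, 10.57 and 10.30 with ASP+CGP. The ASP arrays lay above all others, by 0.66 ± 0.07 vs CON and 0.57 ± 0.07 vs ASP+CGP, with adjusted p of 3.2e-05 and 1.3e-04 in limma. Adrenal genes were high in the ASP pool too, and the part of adrenal tissue in the Th values was not tested.

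Tph2, the neuronal tryptophan hydroxylase, was 6.61, 6.65 and 6.73 in the CON pool, 6.12, 6.32 and 6.27 with CGP, 6.13, 6.24 and 6.20 with ASP, and 6.11, 6.44 and 6.49 with ASP+CGP. CON lay above all 9 arrays of the treated pools. The log2 fold change of Tph2 was -0.47 ± 0.09 in ASP vs CON with an adjusted p of 0.0046 and -0.43 ± 0.09 in CGP vs CON with an adjusted p of 0.04 in limma, and the latter call was lost without any 1 of the CON, CGP or ASP arrays (adjusted p 0.062 to 0.2). In ASP+CGP vs CON it was -0.32 ± 0.09 with an adjusted p of 0.089. Tph2 is 1 of 5 genes tested of a list for serotonin and hindbrain neurons, of which 2 were higher and 2 lower in ASP vs CON. Slc6a4, the serotonin transporter, was higher in ASP vs CON by 0.50 ± 0.06 (adjusted p 1.2e-04), the direction opposite to Tph2. Hoxc6 was higher as well, by 0.74 ± 0.12 (adjusted p 0.0026 in limma). Slc6a5, the glycine transporter of hindbrain and spinal neurons, was -1.43 ± 0.08 in ASP, -2.03 ± 0.08 in CGP and -1.91 ± 0.08 in ASP+CGP vs CON, and Htr1a was not called. The part of hindbrain tissue in the Tph2 values was not tested.

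Of 9 genes of amine synthesis, storage and breakdown after tyrosine, 3 were higher in ASP than in CON and than in ASP+CGP. Dbh, which makes noradrenaline, was 6.14, 6.09 and 6.23 in CON and 8.89, 9.0 and 8.77 in ASP. Pnmt, which makes adrenaline, was 6.62, 6.39 and 6.84 in CON and 9.21, 9.45 and 9.51 in ASP. Slc18a1, the vesicle transporter of chromaffin cells, was 5.93, 5.99 and 6.13 in CON and 6.79, 6.76 and 6.95 in ASP. The ASP arrays of these genes lay above all other arrays, with log2 fold changes vs CON of 2.73 ± 0.07, 2.77 ± 0.10 and 0.82 ± 0.06. Ddc, which decarboxylates L-DOPA, differed by -0.09 ± 0.05 and did not pass the test.

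**Figure D4:**
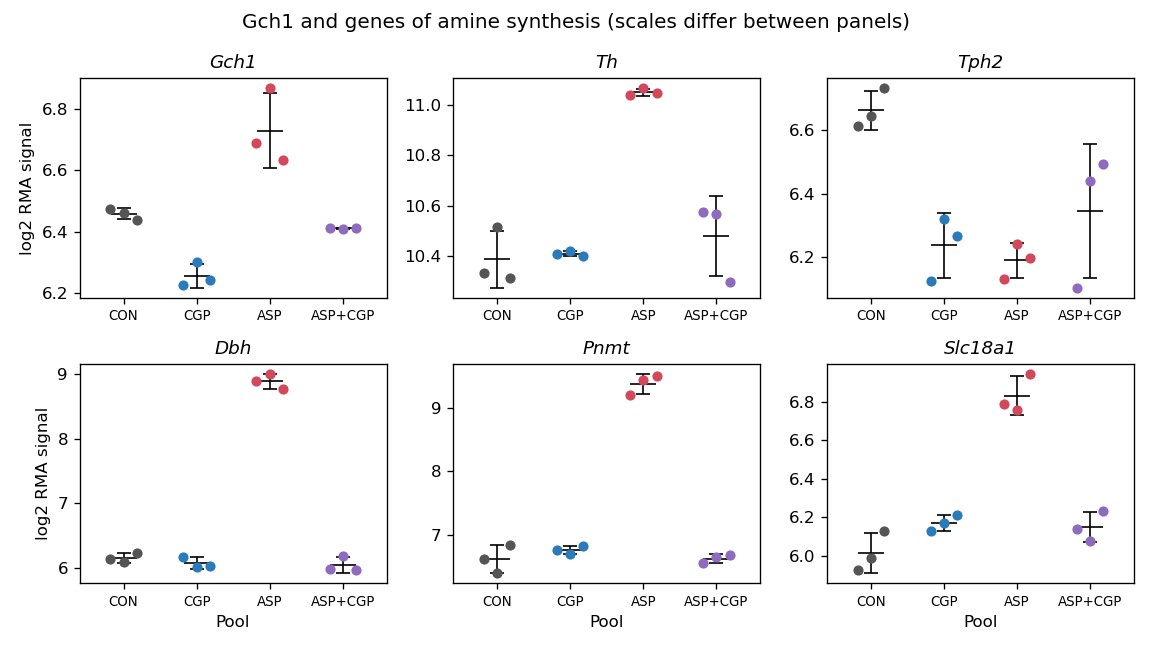
Log2 RMA signal (vertical axes, scales differ) of Gch1 and of 5 genes of amine synthesis and storage by pool. Points are arrays, and bars the mean and SD. In Gch1, Th, Dbh, Pnmt and Slc18a1 all 3 ASP arrays lie above the other 9, and CGP is the lowest pool for Gch1 alone.

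Markers of other tissues were high in the ASP pool, as Gch1 was. Of adrenal cortex genes 11 of 11 were called higher in ASP vs CON, with a mean log2 signal over the list of 6.79 to 6.87 on the CON, CGP and ASP+CGP arrays and 10.22 to 10.26 on the ASP arrays, the steroid hydroxylases Cyp11b1 and Cyp21a1 among them. Of adrenal medulla genes 7 of 9 were higher, at 8.99 to 9.16 and 9.92 to 9.97, Chga among them at 0.37 ± 0.04, while Penk was not called. Of adipose genes 9 of 9 were higher (6.44 to 6.54 and 9.24 to 9.27, Car3 and Retn among them), and of exocrine pancreas genes 8 of 8 (6.59 to 6.80 and 8.48 to 8.62, Ctrb1 and Cpa1 among them). The pituitary list (Gh, Cga), 8 of 9 higher in ASP vs CON, did not keep to ASP: it lay at 9.65 to 9.81 in the CON pool, 10.48 to 10.51 with CGP, 10.64 to 10.66 with ASP and 8.36 to 8.58 with ASP+CGP. Log2 array signals have no true zero, so whether a marker is absent from a pool cannot be read from them.

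Over the 12 arrays, the signal of Gch1 correlated at 0.86 with the adrenal cortex list and 0.85 with the adrenal medulla list. With the adipose and exocrine pancreas lists it correlated at 0.86 and 0.83. ASP was the high pool in each of these lists. The liver, pituitary, brain capillary endothelium and oligodendrocyte lists also had their highest mean in ASP, with correlations of 0.61, 0.24, 0.46 and 0.09. Where Gch1 and a list are high in the same pool, the correlation largely restates that, so nothing further is read from it. In CON, CGP and ASP+CGP the adrenal cortex means were 6.83, 6.86 and 6.85. Those of Gch1 were 6.46 ± 0.02 (SD), 6.26 ± 0.04 and 6.41 ± 0.001, and no Gch1 difference among these pools was called. The part of these tissues in the Gch1 signal, in ASP or in the other pools, was not tested.

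The liver list bears on the tyrosine-degrading enzymes. Of its 8 genes tested, 3 were higher in ASP vs CON, and its mean was 7.48 to 7.65 on the CON arrays, 7.71 to 7.74 with CGP, 7.95 to 8.02 with ASP and 7.71 to 7.79 with ASP+CGP. The 3 were Alb, Hp and Ttr, at log2 fold changes of 0.999 ± 0.09, 0.96 ± 0.07 and 0.74 ± 0.07. Ttr, which the choroid plexus also makes, was higher in CGP and in ASP+CGP vs CON too, by 0.42 ± 0.07 and 0.50 ± 0.07, the former not called without moderation of the spread (adjusted p 0.057). The other 5, Apoa1, Apoa2, Apob, Fgb and Cps1, were not called and lay between 0.05 for Apoa2 and 0.17 for Cps1. Fah, Hpd and Tat were not called there, and the part of liver genes in the Tat values was not tested.

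Outside the lists, 2 genes had signals most like that of Gch1 among 4864 genes with an SD of at least 0.1 over the 12 arrays. These were AI506816 and Smim3, both at r = 0.94 over 12 arrays, given as a description. AI506816 had pool means of 7.85 for CON, 7.56 for CGP, 8.05 for ASP and 7.75 for ASP+CGP, and Smim3 had 8.89, 8.75, 9.03 and 8.85. Both had the same order of pool means as Gch1, with ASP highest and CGP lowest. A choice by r over these same arrays favors such a match, so nothing further is read from it.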

How the data were processed

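Hypothalamic RNA of 4 pools was measured on 12 arrays, 3 per pool, grouped by the sample labels. The deposited values are log2 signals that the authors made in Partek by RMA (background correction, quantile normalization and median polish), and per the methods values below log 6 were filtered. The number of arrays limits the precision. Of 29149 probe sets, 19019 had 1 symbol, and after the filter (3 or more arrays at a log2 signal of 6 or over) and taking the brightest probe set per gene, 17186 genes remained. Median array signals were 8.28 to 8.34.

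Linear models were fitted in R 4.3.3 with limma 3.58.1 (moderated by eBayes, all 12 arrays, 8 residual and 5.43 prior degrees of freedom) and Benjamini-Hochberg adjustment over all genes within each of 6 contrasts. In simulated data for ASP vs CON over 17186 genes, 56% of 1.2-fold, 94% of 1.4-fold and 100% of 2-fold and 4-fold changes were called, with 11 false calls. The simulation drew independent normal noise for each gene and array and changed 50 genes at each fold in ASP alone. It lacked deviations shared between genes or arrays, and its rates concern repeat arrays of a pool and not mice. With 3 arrays a pool, no exact permutation test per gene was made.

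The members and lists were chosen with earlier results of these data known. Named genes were all members, up to 4 called genes per pathway list and contrast with Th, Tph2, Gchfr, Pcbd2 and Slc3a2, the 2 brightest genes per tissue list, and the 2 genes most like each called member. Ddc, Slc6a4, Hoxc6 and the liver genes other than Ttr and Apoa2 were named after their values were seen. Some genes of these pathways are not reported here. Alternatives were other filters, probe set rules, normalization, spread models, adjustment, fold threshold, a replicate block, and leaving out each array. A fit without array 3 of CON and array 3 of ASP+CGP, and a block for these pools alone, were added after seeing the data. Promoter windows and coordinates are from RefSeq, GRCm38.p6.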

Additional observations from a re-analysis of the deposited data

Results flagged for a closer look

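The interaction term in limma asks whether the aspartame difference itself differed between the backgrounds without and with CGP 39551. It was called for 690 of the 17186 genes tested (4.01%). Only the members, the pathway genes and some of the marker genes were looked at singly, and 11 of these genes were called. None of the 9 members was among them. The marker genes looked at had all been called in ASP vs CON. By list, the interaction was called for 11 of 11 adrenal cortex genes, 8 of 9 adrenal medulla, 9 of 9 adipose and 8 of 8 exocrine pancreas. It was called for 8 of 9 pituitary, 3 of 8 liver, 4 of 5 serotonin and hindbrain and 2 of 9 endothelial genes. The hypothalamus list had 1 of 11, and those for neurons, astrocytes and oligodendrocytes 0. For Th the interaction was -0.59 ± 0.10 on the log2 scale (adjusted p 0.0029), from 0.66 in ASP vs CON to 0.07 in ASP+CGP vs CGP. For Tph2 it was 0.58 ± 0.12 (adjusted p 0.014), from -0.47 to 0.11, a call lost without moderation of the spread (adjusted p 0.083) and without array 3 of CON and array 3 of ASP+CGP (adjusted p 0.06). For Dbh it was -2.75 ± 0.10 (adjusted p 3.4e-10), from 2.73 to -0.03, for Pnmt -2.91 ± 0.14 (adjusted p 4.3e-09), from 2.77 to -0.14, and for Slc18a1 -0.84 ± 0.09 (adjusted p 4.5e-05), from 0.82 to -0.02. The interaction was also called for the marker genes Slc6a4 (-0.47 ± 0.08, adjusted p 0.0056), Slc6a5 (1.55 ± 0.11, adjusted p 9.0e-07), Alb (-0.96 ± 0.12, adjusted p 2.8e-04), Hp (-0.90 ± 0.10, adjusted p 1.0e-04), Ttr (-0.66 ± 0.09, adjusted p 5.5e-04) and Chga (-0.37 ± 0.06, adjusted p 0.0015), with differences of -0.01 to 0.12 in ASP+CGP vs CGP. Dbh, Pnmt and Slc18a1 belong to the adrenal medulla list whose signal was high in the ASP pool. With pooled RNA, these differences cannot be told apart from other differences between the 4 pools.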

How the results depend on the processing

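Of 138 recounts of called members under 24 alternatives, 5 differed from the values above. In ASP vs CON the count of 1 became 0 with the 1.4-fold threshold, 0 with a signal filter of at least 7, under which Gch1 was no longer tested, and 0 when only the arrays of ASP and CON were fitted (adjusted p of Gch1 0.058). In ASP vs ASP+CGP it became 0 with the 1.4-fold threshold and 0 with the filter at 7. Leaving out each array in turn kept the counts, with Gch1 at 0.20 to 0.32 in ASP vs CON (adjusted p 0.0051 to 0.031) and at 0.25 to 0.37 in ASP vs ASP+CGP (adjusted p 0.0013 to 0.0093). The 52 member differences that were not called stayed uncalled in all 1134 refits. For Tph2 the interaction lost its call without moderation of the spread (adjusted p 0.083) and without array 3 of CON and array 3 of ASP+CGP (adjusted p 0.06), and its CGP vs CON call was lost without moderation (adjusted p 0.17) and without those arrays (adjusted p 0.052).

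With the replicate block, Gch1 was 0.27 (adjusted p 0.0083) and 0.32 (adjusted p 0.0021), and the member counts stayed at 1 in these comparisons and 0 in the others. Deviations of arrays with the same number correlated above 0.1 for all pairs only in CON and ASP+CGP (0.170, 0.256 and 0.541), and a replicate block for these pools alone called 144 genes in ASP+CGP vs CON, against 68 when the 2 pools were fitted alone without it, and 0 members. The signal over background limits Gch1, Hpd and Tat, whose folds may be understated. Other genes of low signal, such as Tph2, Dbh and Slc18a1, have the same limit.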
